A study of Mus musculus with 2 samples.

Results

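Inflammasome and NOD pathway genes were compared between the CD8+ and CD8- populations of conventional dendritic cells (DCs), which are among the antigen-presenting cells of the mouse spleen. The group comprised 10 listed genes (Casp1, Casp4, Pycard, Nlrp3, Nod1, Nod2, Ripk2, Card9, Il1b and Il18), and its values were those of the probe sets annotated to exactly 1 of them. Of the 10, 7 had such a probe set (9 probe sets in all), out of 18194 genes represented in the table. Nod2, Ripk2 and Card9 had no single-gene probe set in the annotation used and were not analysed here. All 7 were measured, meaning that the higher of their values reached a floor set at the table's median log2 signal, 3.85. In all, 11404 genes were measured.

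The first population was CD8+ DCs, sorted as CD11c+ CD8a+ cells that lacked CD3 and B220, and the second was CD8- DCs, sorted in the same way but without CD8a. Both came from C57BL/6 mice carrying B16 melanoma cells that produced Flt3L, a growth factor that expands DCs, for 10 to 12 days, so the tumour and the expansion were common to both. The labels call both populations unstimulated. The labels give no animal age and no number of mice per sort. Each population was measured on 1 Affymetrix array, so no value has a replicate, no test was made, and a difference cannot be told apart from variation between mice, sorts or hybridisations.

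Inflammasomes are cytosolic complexes that activate inflammatory caspases. In the canonical form, a sensor such as NLRP3 recruits the adaptor ASC, which recruits caspase-1. Caspase-1 then cleaves the precursors of IL-1β and IL-18 and the pore-forming protein gasdermin D. Mouse caspase-11, the product of Casp4, binds bacterial lipopolysaccharide in the cytosol and cleaves gasdermin D itself. NOD1 and NOD2 are cytosolic receptors for fragments of peptidoglycan and signal through the kinase RIPK2 to NF-κB, while CARD9 relays signals from C-type lectin receptors. Transcripts of Nlrp3 and Il1b are known to be induced by NF-κB signals in myeloid cells, whereas Il18 and Pycard are usually present without stimulation.

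The markers of the sorts favoured their own populations on the arrays. Of the 7 CD8+ DC markers with a probe set, 6 favoured CD8+ DCs by 2-fold or more (Batf3 was 1.59-fold higher), and all 7 CD8- DC markers with a probe set favoured CD8- DCs by as much. Clec9a and Clec4a4 had no single-gene probe set. All 7 CD8+ DC markers also lay above the floor in CD8- DCs, between 4.68 (Itgae) and 10.2 (Irf8). Of the 7 CD8- DC markers, 4 were below the floor in CD8+ DCs. The general DC markers Itgax, Flt3, Zbtb46, H2-Aa and Cd74 differed by less than 2-fold. Probe sets of the same gene varied in their difference with a pooled SD of 0.30 on the log2 scale, over 5183 genes with several measured probe sets. This SD reflects technical spread within this pair of arrays only.

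Most of the genes were higher in CD8- DCs. None of the 7 favoured CD8+ DCs by 2-fold or more, the threshold used here, and 4 favoured CD8- DCs by as much, namely Casp1, Casp4, Il1b and Nod1. Over all measured genes, 3.55% favoured CD8+ DCs by 2-fold or more and 5.97% favoured CD8- DCs by as much. The median log2 difference, CD8+ minus CD8-, was -1.18 over the 7 genes and 0.03 over all measured genes. Of the 7 genes, 1 had a positive and 6 had a negative difference, beside 5999 and 5113 of all measured genes. In RNA from a population, fewer cells of a type and less RNA per cell cannot be told apart.

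**Figure D1:**
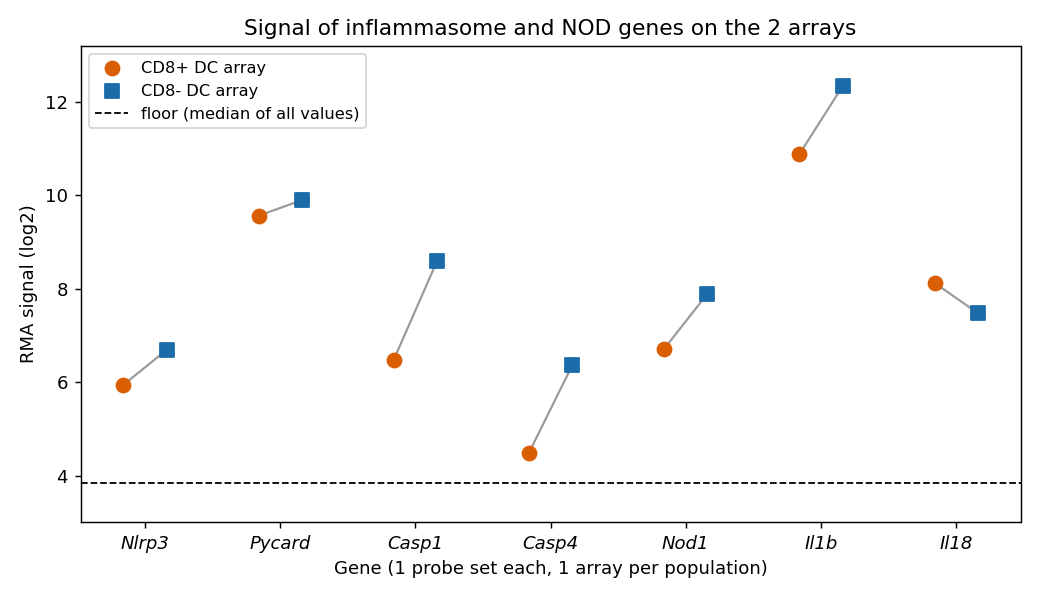
RMA signal (log2) of the 7 measured genes, with the CD8+ DC array as circles and the CD8- DC array as squares, 1 array each; the dashed line is the floor of 3.85. All points lie above the floor, Casp4 in CD8+ DCs at 4.49, and Il18 is the 1 gene whose CD8+ point is the higher.

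The promoters of the 4 genes that passed 2-fold are shown because these genes differed in the same direction. The windows come from RefSeq (GRCm38.p6) and run from 250 bases before to 50 bases after an annotated transcript start, written 5′ to 3′ along the gene. Where RefSeq gives several starts, the first listed is printed. The Casp1 window is chr9:5298267-5298566 on the plus strand, that of Casp4 is chr9:5308599-5308898 on the plus strand, that of Nod1 is chr6:54972563-54972862 on the minus strand and that of Il1b is chr2:129371090-129371389 on the minus strand. Capitals mark matches to the κB motif, the site bound by NF-κB dimers.
Casp1: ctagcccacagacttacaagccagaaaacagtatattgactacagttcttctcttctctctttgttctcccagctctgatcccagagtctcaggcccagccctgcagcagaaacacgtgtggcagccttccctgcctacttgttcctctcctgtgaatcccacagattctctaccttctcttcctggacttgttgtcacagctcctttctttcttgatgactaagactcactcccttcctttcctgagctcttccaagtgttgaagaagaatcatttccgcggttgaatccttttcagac
Casp4: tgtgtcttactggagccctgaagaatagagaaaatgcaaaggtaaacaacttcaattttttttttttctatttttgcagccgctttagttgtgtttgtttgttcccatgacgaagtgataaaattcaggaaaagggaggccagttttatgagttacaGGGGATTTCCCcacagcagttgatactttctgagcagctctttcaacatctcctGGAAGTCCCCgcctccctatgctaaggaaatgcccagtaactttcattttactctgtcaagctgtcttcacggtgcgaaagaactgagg
Nod1: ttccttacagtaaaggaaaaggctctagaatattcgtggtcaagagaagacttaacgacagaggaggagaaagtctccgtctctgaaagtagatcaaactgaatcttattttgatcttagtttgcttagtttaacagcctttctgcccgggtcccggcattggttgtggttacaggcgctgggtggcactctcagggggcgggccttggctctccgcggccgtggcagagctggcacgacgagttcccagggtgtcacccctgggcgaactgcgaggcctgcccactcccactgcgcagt
Il1b: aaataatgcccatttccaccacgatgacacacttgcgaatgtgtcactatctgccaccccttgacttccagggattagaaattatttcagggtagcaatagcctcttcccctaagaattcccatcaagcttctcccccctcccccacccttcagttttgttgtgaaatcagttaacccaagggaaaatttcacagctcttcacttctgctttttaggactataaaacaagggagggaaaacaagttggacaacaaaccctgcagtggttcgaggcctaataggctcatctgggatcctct

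Both strands were searched for the κB motif, for the interferon-stimulated response element (GAAA, any 2 bases, GAAA), bound by interferon regulatory factors, and for the ETS-IRF composite element (GGAA, any 2 bases, GAAA), bound by PU.1 with IRF4 or IRF8. Matches of different motifs could overlap. Of the 4 printed windows, the Casp4 window held a κB match, in 2 stretches that begin 93 and 39 bases before the start. The first of these stretches holds overlapping matches. Neither of the other motifs had a match in the 4 windows. Of the 32851 windows in the RefSeq table, 8.46% held the κB motif, 3.44% held the interferon-stimulated response element and 2.72% held the composite element. Windows were found for 9 of the 10 genes, 12 in all, and 9 of the 12 held none of the motifs. Beside both Casp4 windows, which overlap, 1 of the Nlrp3 windows held a κB match, beginning 186 bases before its start. These matches describe the letters of the windows and not binding.

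Among the sensors, Nlrp3 encodes the NOD-like receptor that assembles the canonical inflammasome after many kinds of cell stress. Its log2 signal was 5.94 in CD8+ DCs and 6.69 in CD8- DCs, which is a difference of -0.75, or 1.68-fold higher in CD8- DCs. It stayed under the 2-fold threshold, and 987 of the 11404 measured genes had a difference as low or lower. Its 1 probe set lay well above the floor on both arrays, by 2.10 and 2.84 log2 units in CD8+ and CD8- DCs.

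Pycard, which encodes the adaptor ASC, was nearly equal on the arrays and well above the floor. Its log2 signal was 9.56 in CD8+ DCs and 9.90 in CD8- DCs, which is a difference of -0.33 that is close to the pooled SD between probe sets. A second Pycard probe set was near the floor, at 3.74 in CD8+ DCs and 3.94 in CD8- DCs (difference -0.20). The remaining one did not reach the floor on either array (3.36 in CD8+ and 3.66 in CD8- DCs). All 3 probe sets were slightly lower in CD8+ DCs, and none approached 2-fold. Only the first lay well above the floor, and background compresses the differences of the others, so they add little to it.

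Casp1 had the largest difference of the group. Its log2 signal was 6.48 in CD8+ DCs and 8.59 in CD8- DCs, which is a difference of -2.11, so that the CD8+ level was 23.1% of the CD8- level. This was 4.32-fold in favour of CD8- DCs, and 219 of the measured genes (1.92%) had a difference as low or lower. Caspase-1 transcript therefore differed far more between the arrays than those of Pycard (by 1.78 log2 units) and Nlrp3 (by 1.36). This does not extend to every sensor gene. Of those described below, Mefv differed more than Casp1 (-2.69) and Aim2 did not differ.

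Casp4, the gene of caspase-11, had the next largest difference. Its log2 signal was 4.49 in CD8+ DCs and 6.36 in CD8- DCs, which is a difference of -1.87, or 3.66-fold higher in CD8- DCs. Of the measured genes, 263 had a difference as low or lower. The CD8+ value lay 0.64 log2 units above the floor, where background compresses differences. Casp1 and Casp4 are neighbours on chromosome 9 in the RefSeq gene table (GRCm38.p6), with Casp12, a further caspase gene, next to Casp4. Casp12 did not reach the floor on either array (2.34 in CD8+ and 2.61 in CD8- DCs). Casp1 and Casp4 are related in sequence, and the names of their probe sets carry neither suffix of probe sets prone to cross-hybridisation. The names do not show that the probes separate these genes, which was not tested. The differences of Casp1 and Casp4 lay 0.24 log2 units apart.

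Nod1, which encodes the receptor for peptidoglycan fragments that contain diaminopimelic acid, passed the threshold by the smallest margin. Its log2 signal was 6.71 in CD8+ DCs and 7.89 in CD8- DCs, which is a difference of -1.18, or 2.26-fold higher in CD8- DCs. Of the measured genes, 551 had a difference as low or lower. Nod1 was the median gene of the group.

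The product cytokines went in opposite directions. Il1b was at 10.88 in CD8+ DCs and 12.34 in CD8- DCs. The difference of -1.46 corresponds to 2.74-fold higher signal in CD8- DCs, and 390 of the measured genes had a difference as low or lower. The CD8+ value lay 7.03 log2 units above the floor, so Il1b signal was not near background in either population. Il18 was at 8.13 in CD8+ DCs and 7.48 in CD8- DCs, which is a difference of 0.65, or 1.57-fold higher in CD8+ DCs. It stayed under 2-fold, and 828 of the measured genes (7.26%) had a difference as high or higher. The differences of Il1b and Il18 lay 2.10 log2 units apart, Il1b being the lower.

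**Figure D2:**
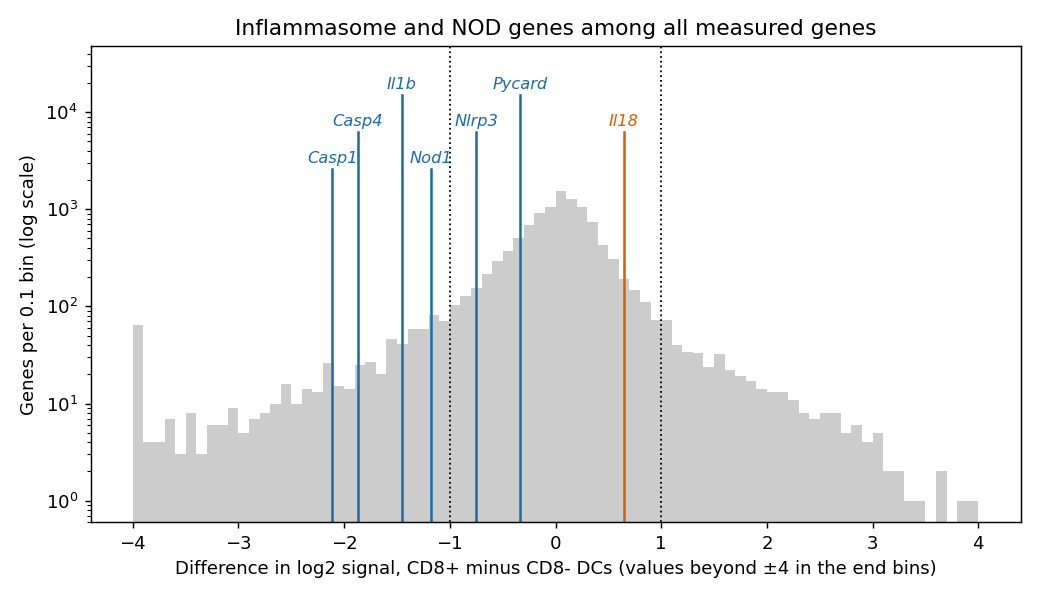
Distribution of the log2 difference (CD8+ minus CD8- DCs) over 11404 measured genes on a log count axis, with the 7 genes as vertical lines and dotted lines at the 2-fold threshold. Casp1 (-2.11), Casp4 (-1.87), Il1b (-1.46) and Nod1 (-1.18) lie left of the lower threshold, and Il18 (0.65) is the 1 gene to the right of zero.

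A further 84 genes in 4 lists described the surroundings of the group, and no gene is in more than 1 list. Of these, 65 were measured and 9 had no single-gene probe set. Of the 19 measured inflammasome sensors and regulators, none favoured CD8+ DCs by 2-fold or more and 4 (21.1%) favoured CD8- DCs, with a median difference of -0.08. The shares over all measured genes were 3.55% and 5.97%. The largest difference was that of Mefv, which encodes pyrin, the sensor of inactivated RhoA and the gene of familial Mediterranean fever in humans. It was at 5.29 in CD8+ DCs and 7.98 in CD8- DCs, or 6.47-fold higher in CD8- DCs. Serpinb1a, an inhibitor of neutrophil serine proteases, was 2.50-fold higher in CD8- DCs on its 1 measured probe set. The average over all its probe sets was at -0.90, but it takes in signal below the floor on both arrays. Panx1, a channel through which ATP leaves the cell, was 2.29-fold higher there, and Txnip, a thioredoxin-binding protein gene reported to bind NLRP3, was 2.13-fold higher there (2 probe sets at -1.09 and -1.03).

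The other measured genes of that list stayed under 2-fold, between -0.84 for Casp8 and 0.93 for P2rx7, and the ones named here were chosen after their values were seen. Casp8, the gene of the initiator caspase of the extrinsic death pathway, was at 7.78 in CD8+ DCs and 8.63 in CD8- DCs (1.80-fold higher in CD8- DCs). The cytosolic DNA sensor gene Aim2 held the same value on both arrays (6.42). The flagellin and secretion system receptor genes of the Naip family, which are related in sequence so that probes may not separate them, lay between -0.36 (Naip2) and 0.34 (Naip5). Gsdmd, the gene of gasdermin D, was at 7.82 in CD8+ DCs and 8.08 in CD8- DCs. P2rx7, the ATP receptor upstream of NLRP3, leaned the other way, at 7.31 in CD8+ DCs and 6.38 in CD8- DCs (1.90-fold higher in CD8+ DCs), with its 3 probe sets between 0.56 and 0.94.

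Among 22 measured NOD signalling genes, 1 (4.55%) favoured CD8+ DCs by 2-fold or more and 3 (13.6%) favoured CD8- DCs, with a median difference of -0.09. Over all measured genes these shares were 3.55% and 5.97%, so the CD8+ share of the list lay near that of all genes. Slc15a3 and Slc15a4 encode endolysosomal peptide transporters that carry muramyl dipeptide, the NOD2 ligand, towards the cytosol. Slc15a3 was at 3.86 in CD8+ DCs, just above the floor, and 6.58 in CD8- DCs, or 6.58-fold higher in CD8- DCs. Slc15a4 was at 6.15 in CD8+ DCs and 8.33 in CD8- DCs, or 4.56-fold higher in CD8- DCs, on its 1 measured probe set. The average over all its probe sets differed by -0.98, but it takes in signal below the floor on both arrays. Tnfaip3, which encodes the ubiquitin-editing inhibitor A20, was 3.76-fold higher in CD8- DCs (probe sets at -1.91 and -1.58). Nagk, the kinase that phosphorylates muramyl dipeptide, was 2.99-fold higher in CD8+ DCs, at 8.26 against 6.68 in CD8- DCs. The Nagk probe sets disagreed, at 1.58 and 0.15.

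For CARD9 signalling, 11 genes were measured, of which none favoured CD8+ DCs by 2-fold or more and 5 (45.5%) favoured CD8- DCs. The shares over all measured genes were 3.55% and 5.97%. The median difference of the list was -0.54. Clec7a, the β-glucan receptor dectin-1, and Fcer1g, the signalling chain of several activating receptors, differed most, by -5.05 and -4.70. Malt1, the protease that acts with BCL10 downstream of CARD9, was 5.40-fold higher in CD8- DCs (9.28, against 6.85 in CD8+ DCs), and its 3 probe sets lay between -2.43 and -1.75. Bcl10, chosen after its values were seen, was at 7.76 in CD8+ DCs and 8.21 in CD8- DCs. The kinase gene Syk, also chosen in this way, was 2.05-fold higher in CD8- DCs. Clec4n, which encodes dectin-2, was below the floor in CD8+ DCs (2.75) and at 4.39 in CD8- DCs, or at least 1.46-fold higher in CD8- DCs. Raising below-floor values to the floor left 4 of the 5 past 2-fold.

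In the IL-1 and IL-18 systems 13 genes were measured, with a median difference of -0.09. None favoured CD8+ DCs by 2-fold or more and 4 (30.8%) favoured CD8- DCs, beside 3.55% and 5.97% of all measured genes. Raising below-floor values to the floor left 2 of the 4. These 2 were the decoy receptor gene Il1r2 (6.88-fold) and the receptor antagonist gene Il1rn (at least 2.68-fold, 3.13 in CD8+ DCs and 5.27 in CD8- DCs), which both restrain IL-1 signalling. Il18r1 and Irak3 did not reach the floor in CD8+ DCs (2.14 and 2.97) and were at 3.91 and 4.24 in CD8- DCs, or at least 1.04-fold and 1.31-fold higher there. The signalling receptor gene Il1r1, chosen after its values were seen, was at 5.40 in CD8+ DCs and 5.28 in CD8- DCs. Il1a, chosen in the same way, did not reach the floor on either array (3.39 in CD8+ and 2.81 in CD8- DCs). Of the genes in the 4 lists above the floor on both arrays, those with the difference nearest to that of Casp1 were Slc15a4 (0.08 log2 units away), Tnfaip3 (0.20) and Malt1 (0.32). Il1rn lay nearer as measured, but its difference rests on a value below the floor. With 2 arrays a pattern is a single difference.

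**Figure D3:**
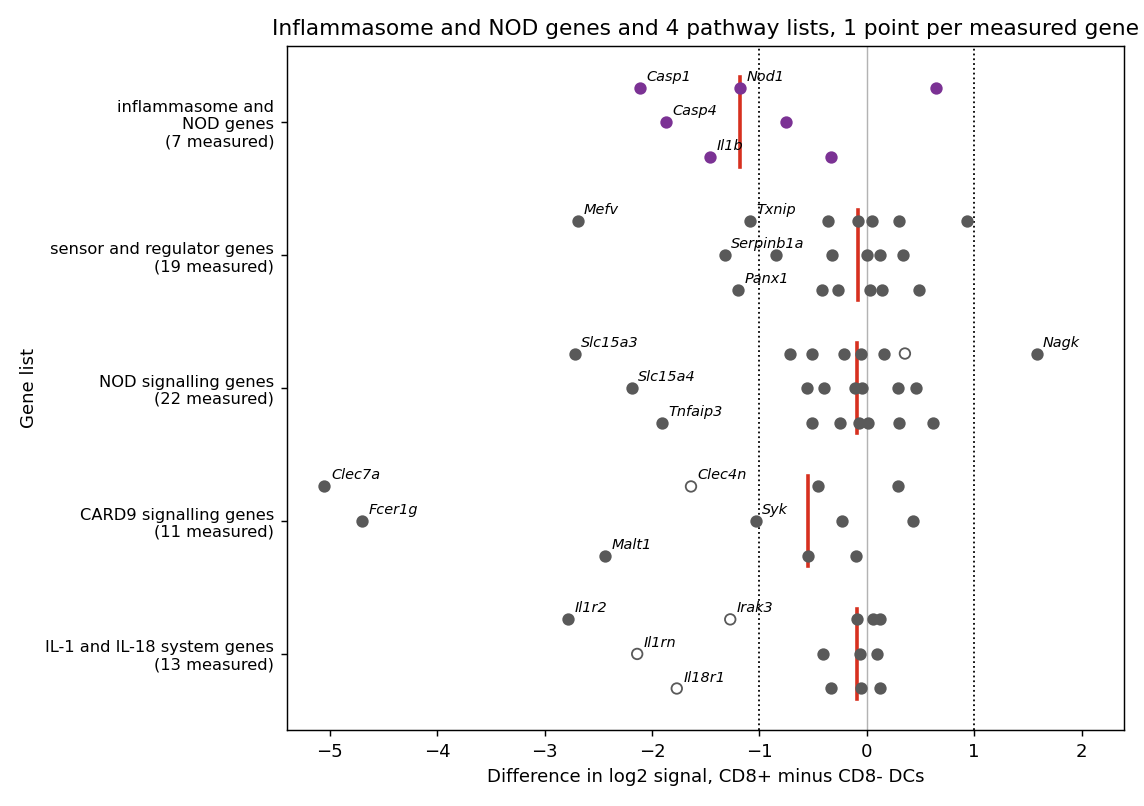
Log2 difference (CD8+ minus CD8- DCs) of each measured gene among the 7 inflammasome and NOD genes and in the 4 pathway lists; red bars are medians, dotted lines mark 2-fold, and open circles are genes with 1 value below the floor. The median is -1.18 for the 7 genes and between -0.54 and -0.08 for the lists, and names are given past 2-fold.

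Markers of other cells that express inflammasome genes differed in both directions. The single markers given here were chosen after their values were seen. Of the 7 measured monocyte and macrophage markers (11 listed), 1 (14.3%) favoured CD8+ DCs by 2-fold or more and 4 (57.1%) favoured CD8- DCs. The shares over all measured genes were 3.55% and 5.97%. Of these markers, 3 had a positive and 4 a negative difference. The summed linear signal of the list, which also takes in genes below the floor, was 317 in CD8+ DCs and 539 in CD8- DCs. These sums lean on different genes, the brightest being Cd14 in CD8+ DCs (7.50) and Adgre1 in CD8- DCs (8.22). Adgre1, which encodes F4/80, was at 4.63 in CD8+ DCs and 8.22 in CD8- DCs. The complement genes C1qa, C1qb and C1qc did not reach the floor in CD8+ DCs and lay between 4.63 and 5.41 in CD8- DCs, or at least 2.75-fold, 2.96-fold and 1.72-fold higher there. Cd14 was 2.63-fold higher in CD8+ DCs, and Vcam1 was 1.82-fold higher in CD8+ DCs (probe sets between 0.42 and 2.49). Fcgr1 was at 4.36 in CD8+ DCs and 4.26 in CD8- DCs, but its 2 measured probe sets disagreed, with differences of 0.10 and -1.65. The macrophage genes Mertk and Spic were below the floor on both arrays. The part of such cells in the differences of Casp1, Casp4, Il1b and Nod1 was not tested.

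Neutrophil markers were near background. Of the 8 with a probe set, 7 were below the floor on both arrays, among them S100a8 (2.32 in CD8+ and 2.09 in CD8- DCs) and Mpo (2.84 and 2.67). Their summed linear signal was 81.1 in CD8+ DCs and 65.9 in CD8- DCs. The melanoma markers had 4 of 5 below the floor on both arrays, and their sums were 50.1 in CD8+ DCs and 46.5 in CD8- DCs. The B cell list had 2 measured genes, which differed in opposite directions. Cd79b was at 3.28 in CD8+ DCs, below the floor, and 6.59 in CD8- DCs, and Ms4a1 was at 5.74 in CD8+ DCs and 4.99 in CD8- DCs. The sums of that list were 88.7 in CD8+ DCs and 152 in CD8- DCs. All 5 plasmacytoid DC markers were measured, and their sums were 503 (CD8+ DCs) and 498 (CD8- DCs). These near-equal sums hold opposite differences, since Ccr9 was 4.26-fold higher in CD8+ DCs and Tcf4 was 4.24-fold higher in CD8- DCs. The T cell list had 2 measured genes, and the NK and erythroid lists 1 each, with none past 2-fold. Sums were 56.2 in CD8+ and 73.6 in CD8- DCs for T cells, 39.5 and 37.6 for NK cells, and 28.3 and 22.0 for erythroid cells.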

How the data were processed

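The authors deposited log2 signal values per probe set for 2 arrays, 1 per population, and RMA is the tool that the submitters' processing notes name. This method subtracts background, applies quantile normalisation and summarises probes. Neither its version nor which arrays were normalised together is stated in the labels. Quantile normalisation would hide a shift shared by most transcripts.

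Of 45101 probe sets, 34958 had 1 gene symbol, 932 had several and 9211 were not listed in the platform annotation supplied. Symbols were updated by gene identifier through RefSeq (GRCm38.p6), which matched 34754 of them. The probe set with the highest mean stood for a gene. A gene was measured where its higher value reached the floor, and a dimmer value below the floor gives an "at least" fold. With 1 array per population, genes were described by size at 2-fold, with no test. All columns were used. No depth applies to arrays, whose number limits the precision.

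The genes and lists were chosen with earlier results of these data known. The text names all 10 genes, up to 4 genes past 2-fold in each pathway list (those with the largest differences) and those nearest to the gene with the largest difference (restricted, after seeing values, to genes above the floor on both arrays), besides genes that the text marks as picked after seeing values. Marker lists are given by counts, those of other cell types also by linear signal summed over all genes with a probe set, including those below the floor. Calculations used Python 3.11.15, numpy 2.4.6, pandas 2.3.3 and statsmodels 0.14.6, and were tested on simulated data. Alternatives were array centring, a lowess trend (span 0.3), no filter or a 75th percentile filter, averaged probe sets, no _x_at or _s_at probe sets, values below the floor set to it, and thresholds of 1.5-fold and 4-fold.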

Additional observations from a re-analysis of the deposited data

How the results depend on the processing

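Under all 7 alternatives that kept the 2-fold threshold, Casp1 (-2.15 to -2.09), Casp4 (-1.91 to -1.87), Il1b (-1.49 to -1.46) and Nod1 (-1.21 to -1.15) stayed past 2-fold, and Nlrp3, Pycard and Il18 stayed under it with the same sign. For Casp1, Casp4, Il1b and Nod1, only array centring and the lowess trend could move the values. Each of these genes has 1 probe set, above the floor on both arrays and without an _x_at or _s_at suffix. The other alternatives therefore returned the main values and were no check on them. At 1.5-fold, 1 of the 7 genes was higher in CD8+ DCs and 5 were in CD8- DCs, and at 4-fold 0 and 1 were, which follows from the thresholds. Over all measured genes the counts were 968 and 1314 at 1.5-fold, and 98 and 239 at 4-fold. In the lists, averaging probe sets takes in those below the floor and changes which genes are measured. It left 0 (against 1) NOD signalling genes past 2-fold in CD8+ DCs and 2 (against 3) in CD8- DCs, of 20 measured (against 22). It left 3 (against 4) sensor and regulator genes past 2-fold in CD8- DCs. The median of the IL-1 and IL-18 systems moved to -0.41, but over 11 measured genes (against 13), and their count past 2-fold in CD8- DCs stayed at 4. With the 75th percentile filter, 1 of 6 measured genes of those systems was past 2-fold in CD8- DCs. No paired analysis was possible because each population has 1 array. Of the 7 measured genes, 6 rest on 1 measured probe set, and signal near the floor limits Casp4 in CD8+ DCs.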
